A study of Mus musculus with 4 samples.

Results

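Cycling microglia are brain macrophages that carry transcripts of cell division genes. Here they were 118 of the 13820 cells kept from 21172 single-cell profiles of mouse brain. A cell was kept with reads of at least 40 genes and at most 59300 reads in all. A kept cell counted as cycling when it had a read of Trem2, a receptor of microglia, and reads of 2 or more of Top2a, Mki67, Ube2c, Aurkb, 2810417H13Rik (now named Pclaf) and Tyms. A cell with a read of Cd3e, Cd79a or Ccr2, which mark T cells, B cells and recruited monocytes, was not counted. The cells were thus chosen by measured reads of these 10 genes, and the levels of the 10 genes below are a description without a test.

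The cells came from 4 male mice aged 9 months with 1 library per mouse, of which 2 were Abi3-/- and 2 Abi3+/+. All 4 mice carried the 5XFAD transgenes, which put familial Alzheimer's disease mutations into neurons, and all were heterozygous for the Trem2 S148E allele of the SJL strain. The Abi3-/- mice lack the Abi3 locus in every cell, and Abi3 was not among the 397 immune genes of the targeted panel. Cells were released from the right hemisphere, without cerebellum and olfactory bulb, with cold Accutase and then depleted of myelin, so the shares are those of the cells that came through this isolation. Values of the mice are given in the order Abi3-/- mouse 1, Abi3-/- mouse 2, Abi3+/+ mouse 1 and Abi3+/+ mouse 2.

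Microglia renew themselves in the adult brain by division of resident cells, and they divide more often around amyloid plaques. In S phase a cell copies its DNA: the MCM helicase opens the strands, PCNA clamps the polymerase to them and thymidylate synthase (Tyms) supplies a building block. From late S phase to mitosis the cell makes topoisomerase II alpha (Top2a), the chromatin protein Ki-67 (Mki67), the mitotic kinase Aurora B (Aurkb) and the ubiquitin-conjugating enzyme Ube2c, which helps to destroy mitotic cyclins. Genes of the first set are textbook targets of E2F factors, and many genes of the second set are held silent outside of G2 and mitosis through a CHR element near the start site, often with CCAAT boxes upstream.

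The promoters of 2 genes of the rule and 2 replication genes outside it are shown, Top2a and Ube2c as genes of late S phase to mitosis and Mcm2 and Pcna as genes of S phase that rose in the cycling cells. They are from the RefSeq table of GRCm38.p6, which is the mm10 assembly, and give the 250 bases before the start given there, 5′ to 3′ on its strand. Motifs were searched in these bases and the 50 that follow, and every match in these 4 genes lies in the bases shown. Capitals mark CCAAT, the CHR letters TTTGAA or TTCGAA, and the E2F letters TTTCCCGC, TTTGGCGC or TTTCGCGC, searched on both strands. Where a CCAAT match lies on the other strand it reads ATTGG, and a CHR match TTTGAA reads TTCAAA.

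Top2a promoter, chr11:99024190-99024439, minus strand: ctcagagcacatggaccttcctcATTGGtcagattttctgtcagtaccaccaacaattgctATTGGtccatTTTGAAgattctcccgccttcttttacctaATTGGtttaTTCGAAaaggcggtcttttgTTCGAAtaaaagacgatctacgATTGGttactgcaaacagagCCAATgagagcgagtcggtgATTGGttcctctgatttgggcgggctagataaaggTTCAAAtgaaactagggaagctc

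Ube2c promoter, chr2:164769679-164769928, plus strand: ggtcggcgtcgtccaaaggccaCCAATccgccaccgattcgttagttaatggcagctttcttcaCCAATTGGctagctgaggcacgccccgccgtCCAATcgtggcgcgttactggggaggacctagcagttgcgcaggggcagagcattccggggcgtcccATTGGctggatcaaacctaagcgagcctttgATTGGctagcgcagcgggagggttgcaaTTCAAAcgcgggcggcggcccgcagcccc

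Mcm2 promoter, chr6:88898781-88899030, minus strand: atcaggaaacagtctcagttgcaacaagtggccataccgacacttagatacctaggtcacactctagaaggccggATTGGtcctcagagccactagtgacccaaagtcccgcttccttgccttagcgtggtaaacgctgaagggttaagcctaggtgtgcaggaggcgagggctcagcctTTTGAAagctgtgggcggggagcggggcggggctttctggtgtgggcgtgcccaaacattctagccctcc

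Pcna promoter, chr2:132253181-132253430, minus strand: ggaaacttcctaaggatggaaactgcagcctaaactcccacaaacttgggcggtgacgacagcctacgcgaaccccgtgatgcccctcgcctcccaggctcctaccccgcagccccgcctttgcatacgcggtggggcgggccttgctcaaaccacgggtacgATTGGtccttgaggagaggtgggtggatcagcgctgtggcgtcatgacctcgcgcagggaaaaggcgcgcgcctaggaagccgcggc

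Top2a held 6 CCAAT and 4 CHR matches, and Ube2c held 6 and 1. In Ube2c, 2 of the CCAAT matches overlapped on opposite strands. Mcm2 held 1 of each, Pcna held 1 CCAAT match and no CHR match, and none of these 4 held the E2F letters. Among all 32851 promoters of 300 bases in the table, 37.4% held a CCAAT match, 19.2% a CHR match and 1.84% an E2F match. Of 11 genes looked up, 9 had a promoter in the table. Mki67 had 3 CCAAT and 2 CHR matches, Pclaf had 2 CCAAT matches and the 1 E2F match of the 9 genes, and Tyms had no match of any kind. Aurkb and Mcm4 were the other genes looked up. A match is a description of letters and not evidence of binding.

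In GRCm38.p6 the genes of the rule lie at the following positions: Top2a at chr11:98992947-99024199, Mki67 at chr7:135689784-135716450, Ube2c at chr2:164769929-164772902, Aurkb at chr11:69045624-69051664, Pclaf at chr9:65890323-65903551 and Tyms at chr5:30038546-30073645. The replication genes outside the rule lie at chr6:88883474-88898780 (Mcm2), chr16:15623897-15637400 (Mcm4) and chr2:132249286-132253180 (Pcna).

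The 118 cycling cells were 11, 54, 27 and 26 cells of the 4 mice. Their median total reads were 35974, 23556.5, 25506 and 23649.5 per cell, against 24319, 19602.5, 19550.5 and 22621 in the comparison cells, so they were the deeper cells in all 4 mice. Comparison cells were the 11752 Trem2-positive cells with no read of the 6 genes and none of Cd3e, Cd79a and Ccr2. Between both groups lay 1018 cells with exactly 1 of the 6 genes, of which 814 had Tyms as that gene. Just inside the threshold were 34 cycling cells with 2 genes, then 33 with 3 or 4 and 51 with 5 or 6. Pairs of genes in the cells with 2 were most often Aurkb with Tyms (7 cells), Pclaf with Tyms (7 cells) and Mki67 with Ube2c (6 cells). A further 40 cells with 2 or more of the 6 genes were left out, 31 of which had no Trem2 read.

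Top2a was read in 10 of 11, 40 of 54, 17 of 27 and 18 of 26 cycling cells. Mki67 was read in 7, 39, 18 and 22 of them, and Ube2c in 8, 34, 14 and 18. Aurkb, with 5, 33, 16 and 12 cells, was the least often read over all mice. Pclaf was read in 6, 34, 15 and 17 cells and Tyms in 6, 33, 18 and 18. Each gene was thus found in 66 to 86 of the 118 cells, and no mouse lacked any of them. The 6 genes together took 2.12%, 2.84%, 3.12% and 4.27% of the reads of the cycling cells. Where present they were not single reads: the median in a cycling cell with the gene was 212 reads for Top2a, 187.5 for Mki67, 168.5 for Ube2c, 121 for Pclaf, 75.5 for Aurkb and 74 for Tyms. In the cells with exactly 1 of the 6 genes these medians were 45, 46.5, 54, 53.5, 38 and 56 reads.

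**Figure D1:**
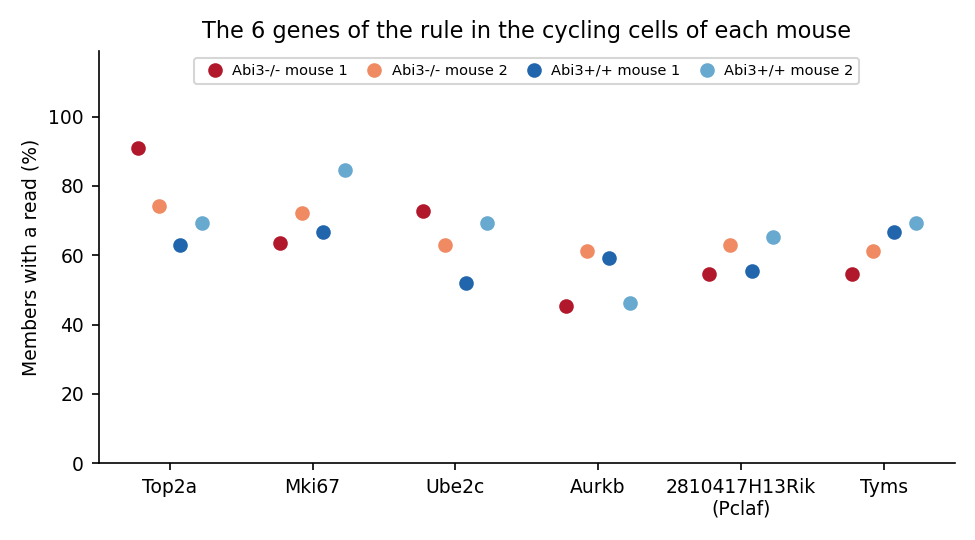
Percent of the cycling cells of each mouse with a read of each of the 6 genes of the rule; points are mice, with 11, 54, 27 and 26 cells. The points lie between 45.5% (Aurkb, Abi3-/- mouse 1) and 90.9% (Top2a, Abi3-/- mouse 1), and since the genes chose the cells they are a description.

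The 6 genes were combined in the cycling cells as follows, which the rule of 2 or more genes partly fixes. Of the 118 cells, 90 had a read of Tyms or Pclaf together with 1 or more of Top2a, Mki67, Ube2c and Aurkb. Only the late genes were read in 21 cells, and only Tyms and Pclaf in 7. The most frequent pair was Top2a with Mki67, in 69 cells, and the least frequent was Ube2c with Tyms, in 39. Outside the cycling cells, Tyms was most often read alone, in the 814 cells given above.

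The label of microglia was checked on markers other than Trem2. C1qa, a subunit of complement C1q, and Fcer1g, a signalling chain of Fc receptors, were read in all 118 cycling cells. Selplg was read in 114, C1qb in 112, Itgam in 107 and the fractalkine receptor Cx3cr1 in 92. Adgre1, which encodes the macrophage protein F4/80, was read in 74 of the 118 (62.7%), against 84.9% of the comparison cells. All 7 of these markers were present in both groups, and their summed level ranged from 121271 to 199852 reads per 1000000 reads (RPM) in the cycling cells of the 4 mice and from 144567 to 229464 in the comparison cells.

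Markers of other cells were counted in both groups. None of 7 B cell markers had a read in a cycling cell. Of 10 T cell markers, 3 had a read, in 7 cells (5.93%, against 4.94% of the comparison cells with any of the 10), and Cd3d, Cd3g, Trbc2, Cd8a and Cd8b1 were at 0. A monocyte marker, Itga4, was read in 3 cells, and the other 6 of that list were at 0 (2.54% with any of the 7, against 1.84%). Neutrophil markers were read in 7 cells (5.93%, against 3.16% of the comparison cells). One of them, in Abi3-/- mouse 2, had reads of all 6 markers and held 34081 of the 35841 reads of that list in the cycling cells, while the other 6 cells had 1 marker each. Their summed level ran from 0 to 25997 RPM over the mice in the cycling cells and from 35.1 to 2403 in the comparison cells. Of 5 genes listed for ependymal cells or astrocytes, Vegfa alone was read, in 5 cells (4.24%, against 3.11% with any of the 5). The oligodendrocyte gene Mbp was read in 15 cycling cells (12.7%), against 18.0% of the comparison cells. Without any T cell, B cell, monocyte or neutrophil marker there remained 101 cycling cells, in which 28 genes passed the test described below in place of 30.

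Free RNA in droplet and well data can put reads of a gene into cells that do not make it. As a background, 94 Trem2-negative cells with reads of the neutrophil genes S100a8, S100a9 and Cxcr2 were examined, since such cells do not divide. None of them had a read of any of the 6 genes, at a median of 28004.5 reads, which allows a share of up to 3.19%. In the Trem2-positive cells, at a median of 21321.5 reads, 8.81% had 1 or more of the 6 genes and 0.916% had 2 or more. The limit of 3.19% lies above the share of cycling cells, so 94 cells were too few to bound the background of the rule itself. Cell labels shared by 2 libraries numbered 182 over all pairs of libraries, and 2 of them concerned a cycling cell.

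The share of cycling cells by genotype addresses whether loss of Abi3 goes with more or less division of microglia. Of the Trem2-positive cells without Cd3e, Cd79a and Ccr2, 11 of 2153 were cycling in Abi3-/- mouse 1, which is 0.511% (95% exact binomial interval 0.255% to 0.912%). In Abi3-/- mouse 2 it was 54 of 4195 cells, or 1.29% (0.968% to 1.68%). In Abi3+/+ mouse 1 it was 27 of 3579 cells, or 0.754% (0.498% to 1.10%), and in Abi3+/+ mouse 2 it was 26 of 2961 cells, or 0.878% (0.574% to 1.28%). The lowest and the highest share both belonged to Abi3-/- mice, and their intervals did not overlap.

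The mean share was 0.899% ± 0.549 in Abi3-/- and 0.816% ± 0.0875 in Abi3+/+ mice (SD, n = 2 each), and the difference did not pass an exact two-sided permutation test over the mice (p = 1.0). With 2 mice per genotype the smallest p that this test can give is 0.333. The difference of 0.0828 percentage points was smaller than the spread between the Abi3-/- mice, and its sign turned without Abi3-/- mouse 2 (-0.305 points), without any cell filter (-0.00225 points) and without the upper read limit (-0.0403 points).

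**Figure D2:**
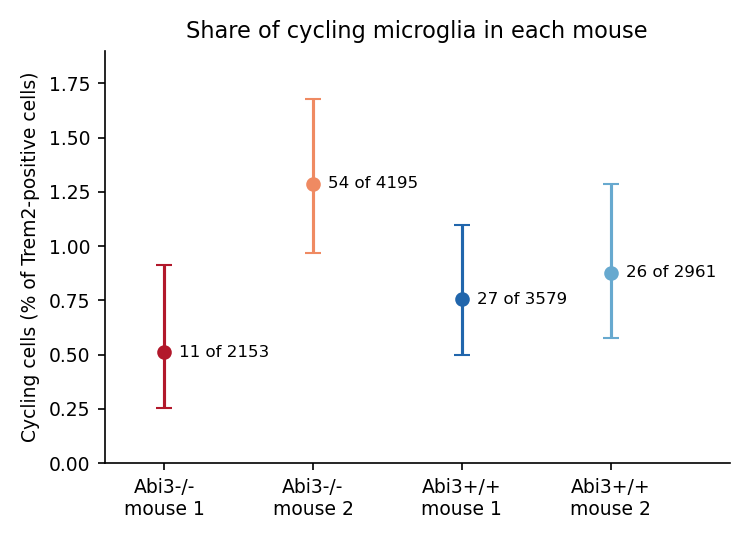
Cycling cells in percent of Trem2-positive cells without Cd3e, Cd79a and Ccr2, for each mouse; bars are 95% exact binomial intervals, which cover counting error only. The Abi3-/- mice, at 0.511% and 1.29%, lie on either side of the Abi3+/+ mice, at 0.754% and 0.878%.

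Cycling cells were then compared with comparison cells of the same mouse, to learn which of the genes that the rule did not use differ in cells that divide. Replication genes were higher in the cycling cells of all 4 mice, by 4.95-fold (Pcna) to 9.91-fold (Mcm2), and the kinase gene Pask by 28.5-fold. Adgre1 and Fcgr3 were lower, by 2.22-fold and 1.92-fold. The reads of each mouse and group were added up, the 10 genes of the rule left out, and the sums were compared by the quasi-likelihood test of edgeR, with the mouse as a block and Benjamini-Hochberg adjustment at 0.05. Of 272 genes tested, 30 passed (11.0%), of which 10 were higher (3.68%) and 20 lower (7.35%). The 20 include H2-Aa and H2-Eb1, which were at 0 in all or most of the cycling sums. Their calls are a description, as given with the MHC class II genes below, though they stay in these counts and shares. Levels are RPM after TMM scaling, which sets the libraries level on the bulk of their genes. Scaling by the total alone shifted all fold changes up by 0.25 on the log2 scale and gave 12 higher and 9 lower genes. All 30 genes kept their direction under it, and 19 of them passed. Leaving out each mouse in turn, 12 of the 30 passed each time and 11 lost their call without 1 of the mice. Without Abi3+/+ mouse 1, 19 genes passed, 5 higher and 14 lower. Genes are compared within a gene only, since a targeted panel does not give levels per transcript length.

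Of 6 cell cycle genes outside the rule, 4 rose in the cycling cells, none fell and 2 did not pass, against 3.68% of all genes tested that rose. The list's median log2 fold change was 2.53, also with Ccnd2, which had no read in cycling cells, set at its bound, and that of all 272 genes was -0.63. Many of the 272 are read in few cells, and over the 174 genes read in at least 5% of cells, fitted on their own, the median was -0.13.

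Mcm2, a subunit of the replicative helicase, was at 1629, 915, 891 and 1591 RPM in the cycling cells and at 76.2, 130, 124 and 174 in the comparison cells. Every cycling value was above every comparison value. The log2 fold change was 3.31 ± 0.41 (SE, 4 mice), with an adjusted p of 0.00305 in edgeR's test. With limma on mean log-normalized expression Mcm2 did not pass (difference 1.00, adjusted p = 0.0595).

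Mcm4, another subunit of the same helicase, stood at 1525, 1295, 1199 and 1247 RPM in cycling cells against 150, 179, 209 and 252. The groups did not overlap, and Mcm4 was higher by 2.75 ± 0.33 on the log2 scale (adjusted p = 0.00305, edgeR). Pcna, the sliding clamp of DNA polymerase, was at 8745, 3219, 5725 and 4701 RPM against 1155, 793, 1151 and 1190. Its log2 fold change of 2.31 ± 0.19 had an adjusted p of 0.000987 in edgeR, and it was the 1 gene that passed under all 19 alternatives run for this comparison.

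Pask encodes a kinase with a PAS domain that is tied to nutrient signals. It was at 370, 487, 217 and 612 RPM in the cycling cells and at 8.23, 16.5, 20.9 and 13.6 in the comparison cells, which do not overlap. This gave 4.83 ± 0.85 as the log2 fold change (adjusted p = 0.0108, edgeR). Pask was rare even so, with a read in 25 of 118 cycling cells (21.2%) and in 0.749% of comparison cells. Without Abi3-/- mouse 2 its adjusted p was 0.0521.

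Neither remaining gene of the list passed. Myc, a growth-promoting transcription factor, was at 0, 181, 508 and 463 RPM against 279, 532, 533 and 891 (adjusted p = 0.341, edgeR), with a read in 15.3% of cycling and 15.4% of comparison cells. Ccnd2, which encodes cyclin D2 of G1 phase, had no read in any of the 118 cycling cells, which allows a share of up to 2.54%, and a read in 0.230% of the comparison cells.

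These 4 genes also varied within the cycling cells with the number of rule genes read. Pooled over the mice, Mcm2 was read in 4.77% of comparison cells, 9.72% of cells with 1 of the 6 genes, 11.8% with 2, 21.2% with 3 or 4 and 49.0% with 5 or 6. For Mcm4 the same steps were 7.33%, 12.1%, 11.8%, 33.3% and 56.9%, and for Pask 0.749%, 0.589%, 5.88%, 15.2% and 35.3%. Pcna, read in 52.7% of comparison cells, went from 59.2% and 55.9% at 1 and 2 genes to 75.8% and 92.2%. The cells with 2 of the 6 genes thus lay near those with 1 for Mcm2, Mcm4 and Pcna. The values at 3 or 4 genes rest mostly on Abi3-/- mouse 2, which gave 19 of the 33 cells of that class, and in it 6 of the 7 cells with Mcm2, 10 of the 11 with Mcm4 and all 5 with Pask. Neither Abi3+/+ mouse had a cell with Mcm2 or Pask in that class, out of 4 and 6 cells.

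Depth also differed between the classes, and its part in the steps above was not tested. The pooled median was 21067 reads in comparison cells and 25201, 23686 and 25682 reads in cycling cells with 2, with 3 or 4, and with 5 or 6 genes. With each cell thinned to 10000 reads, which left out 10 of the 118 cycling cells, Mcm2 was read in 4.86%, 9.66%, 12.9%, 24.1% and 52.1% of the same 5 classes. The classes were not formed anew, and the last held 25 cells with Mcm2 before and after, so this thinning is no test of depth. In the cells with 5 or 6 genes, Mcm2 was read in 3 of 4, 8 of 22, 4 of 12 and 10 of 13 cells of the 4 mice. Pooled over the mice, Apoe was read in 47.0%, 50.4%, 44.1%, 42.4% and 27.5% of the 5 classes and the protease inhibitor gene Cst7 in 33.8%, 41.6%, 50.0%, 57.6% and 39.2%. The mice did not share these steps: in Abi3+/+ mouse 1 Apoe was read in 36.5% of comparison cells and 41.7% of the last class, and in Abi3-/- mouse 1 Cst7 had the same share in both of the last 2 classes.

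**Figure D3:**
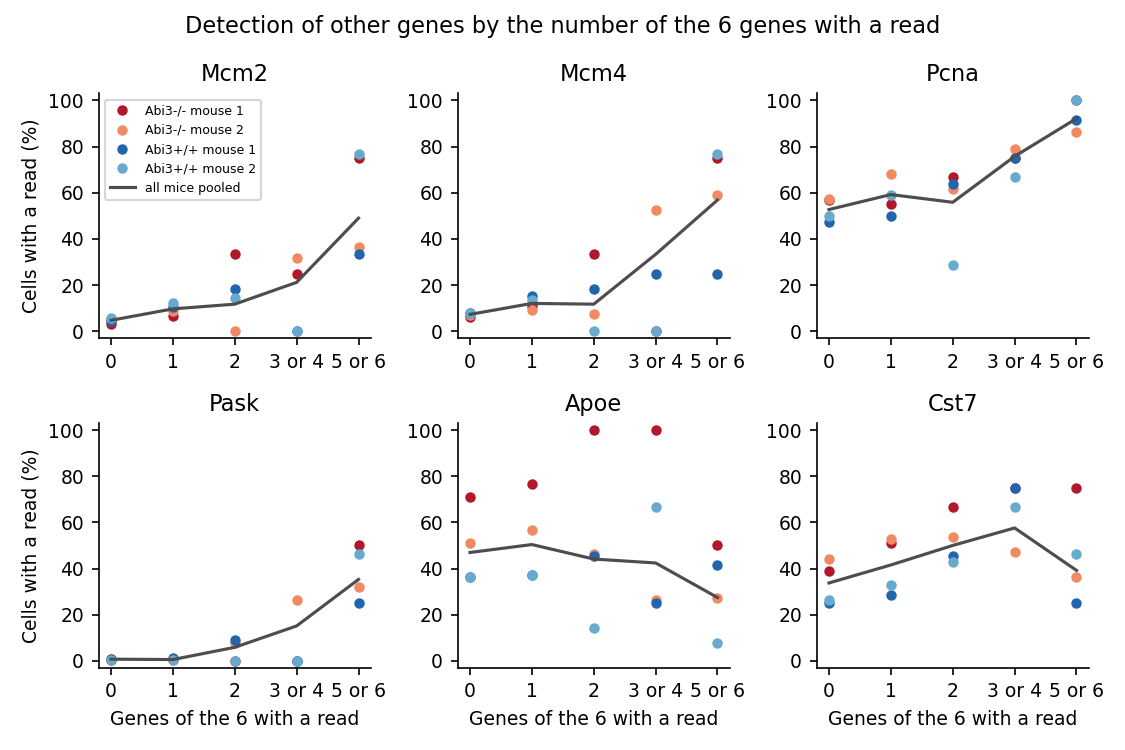
Percent of cells with a read of Mcm2, Mcm4, Pcna, Pask, Apoe and Cst7 by the number of the 6 rule genes with a read; points are mice and the line pools all 4 mice, with 11752, 1018, 34, 33 and 51 cells from left to right. Mcm2 goes from 4.77% to 49.0%, Mcm4 from 7.33% to 56.9%, Pcna from 52.7% to 92.2% and Pask from 0.749% to 35.3%.

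Outside the cell cycle list, 6 genes rose. Tmem97, a sterol-related membrane protein also called the sigma-2 receptor, was at 897, 1089, 2059 and 2376 RPM in cycling cells against 387, 401, 444 and 484, with a log2 fold change of 1.79 ± 0.30 (adjusted p = 0.0103, edgeR). Cycling and comparison cells did not overlap. Both Abi3+/+ mice had higher values in cycling cells than both Abi3-/- mice, but this genotype difference did not pass (adjusted p = 0.803, edgeR). Without Abi3+/+ mouse 1 the adjusted p of Tmem97 was 0.0549. Cd52, a small glycoprotein of the leukocyte surface, rose from 2933, 4446, 3935 and 3100 to 9008, 7791, 7841 and 6240 RPM (log2 fold change 1.11 ± 0.16, adjusted p = 0.00448, edgeR).

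Bax, a promoter of apoptosis, was at 2244, 2060, 2124 and 2364 RPM against 1130, 1068, 1182 and 1189. This is a log2 fold change of 0.94 ± 0.17 (adjusted p = 0.0128, edgeR), with narrow ranges in both groups. Gapdh, an enzyme of glycolysis, was read in all 118 cycling cells, at 29917, 21340, 20028 and 21789 RPM against 14093, 16827, 10569 and 11676 (log2 fold change 0.81 ± 0.14, adjusted p = 0.0108, edgeR). Cd34, a sialomucin best known on blood progenitors, rose by a log2 fold change of 0.54 ± 0.12 (adjusted p = 0.0216, edgeR). The calls of Bax, Gapdh and Cd34 were lost without Abi3+/+ mouse 1, at adjusted p of 0.0626, 0.0525 and 0.122.

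The chemokine gene Ccl4 was at 3780, 6359, 6265 and 11542 RPM in cycling cells and at 2379, 4418, 4722 and 5764 in comparison cells. It was higher in the cycling cells of each mouse, though the ranges overlap, with a log2 fold change of 0.65 ± 0.13 (adjusted p = 0.0179, edgeR). Its call was lost without Abi3+/+ mouse 1 (adjusted p = 0.0543) or without Abi3+/+ mouse 2 (adjusted p = 0.0935). It was also lost with 3 or more genes of the rule required (0.364), with comparison cells matched in total reads (0.207), counted as cells with a read (0.224), without the mouse as a block (0.271) and with limma (0.103). The RefSeq interval of Ccl4, chr11:83648624-83664683, overlaps that of Ccl3, chr11:83647843-83649378, so reads of both could be shared. In the list of 9 chemokines and cytokines Ccl4 was the 1 gene that rose, none fell and 8 did not pass, against 3.68% of all genes tested that rose. Cxcl16 (log2 fold change 0.66 ± 0.19, adjusted p = 0.068), Ccl3 (0.35 ± 0.14, adjusted p = 0.186) and Tnf (0.55 ± 0.23, adjusted p = 0.196, and 0.0178 without Abi3-/- mouse 1) were the next by edgeR's p. DESeq2 called all 3 as higher (adjusted p = 9.09e-07, 0.00211 and 0.0095), and with scaling by the total alone Cxcl16 (0.0253) and Ccl3 (0.0445) passed in edgeR.

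**Figure D4:**
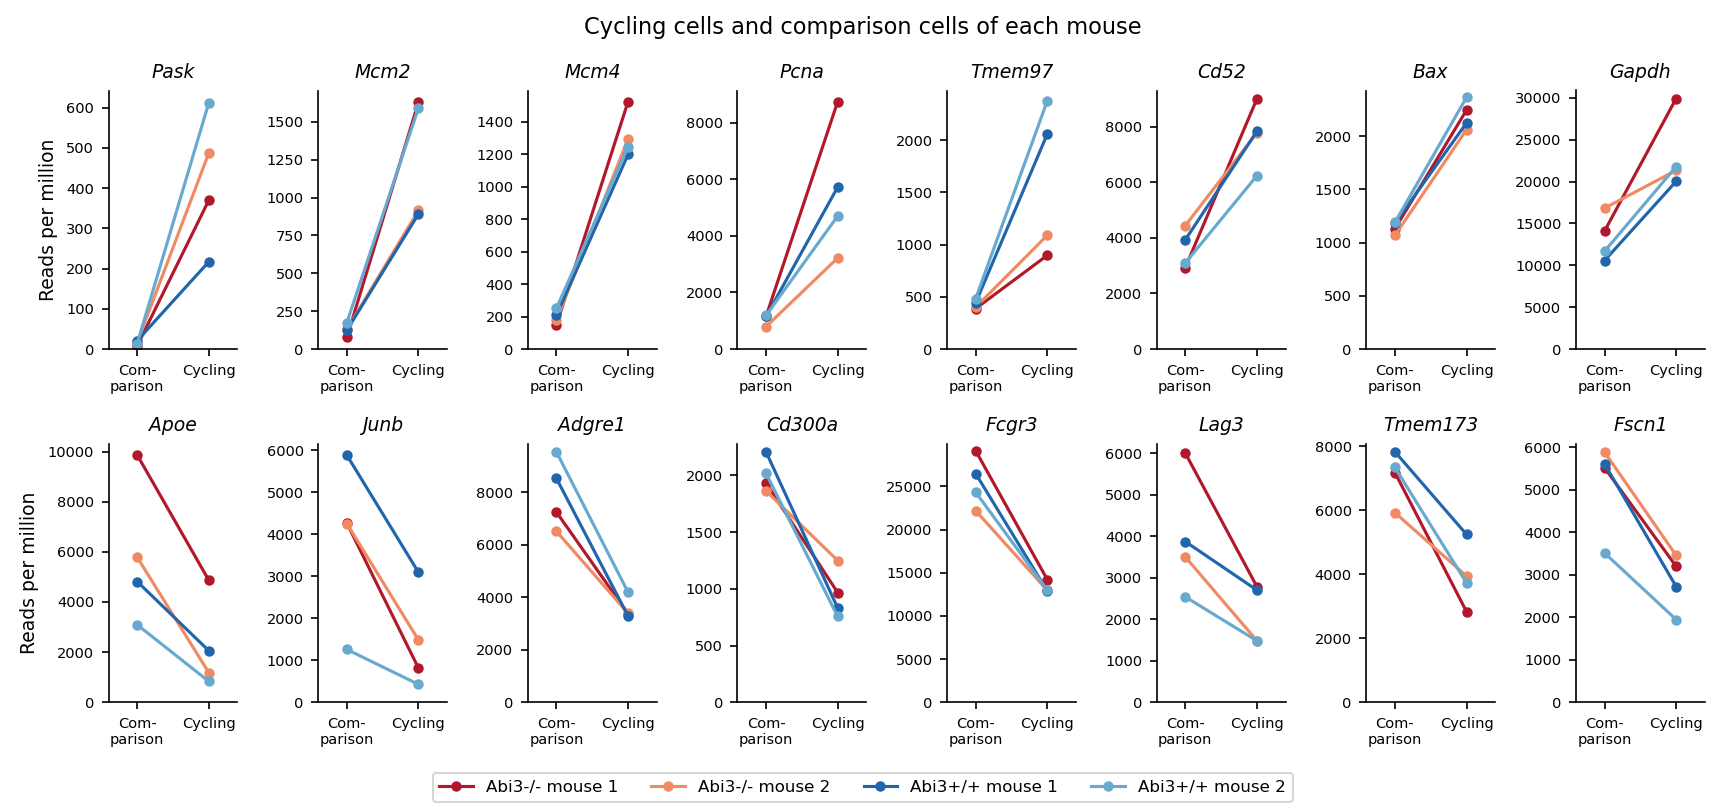
Levels in RPM (TMM-scaled, linear axes from 0) of 8 genes that rose and 8 that fell, in comparison cells and cycling cells of each mouse, joined by a line per mouse. All lines of the upper row go up and all lines of the lower row go down, from Mcm2 at 76.2 to 174 in comparison and 891 to 1629 in cycling cells to Fcgr3 at 22195 to 29135 and 12881 to 14216.

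Of 16 microglia genes, 6 fell, none rose and 10 did not pass, against 7.35% of all genes tested that fell. With scaling by the total alone 3 of the 16 fell, namely Adgre1, Fcgr3 and Lag3. The list's median log2 fold change was -0.42, against -0.63 for all 272 genes. Over the 174 genes read in at least 5% of cells, fitted on their own, the median was -0.13. The list's median in that fit is not given, so its place among widely read genes is open. Adgre1 was at 3372, 3391, 3288 and 4194 RPM in cycling cells and at 7244, 6513, 8529 and 9538 in comparison cells. The groups are well apart, at -1.15 ± 0.12 on the log2 scale (adjusted p = 0.00239, edgeR). Fcgr3, an activating receptor for IgG, was at 14216, 12970, 12881 and 13005 RPM against 29135, 22195, 26481 and 24331 (log2 fold change -0.94 ± 0.10, adjusted p = 0.00239, edgeR).

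Lag3, a receptor of the immunoglobulin family, went from 6007, 3504, 3876 and 2542 to 2789, 1486, 2704 and 1483 RPM (log2 fold change -0.91 ± 0.16, adjusted p = 0.0108, edgeR). Its adjusted p was 0.0762 without Abi3-/- mouse 2. C1qa was at 47941, 39589, 57895 and 63187 RPM in cycling cells against 89080, 68584, 77088 and 90160, a log2 fold change of -0.65 ± 0.12 (adjusted p = 0.0128, edgeR). The ranges of Lag3 overlap, those of C1qa do not. C1qa was read in all 118 cycling cells and 99.7% of comparison cells, so its difference lies in its share of the reads and not in how many cells had a read. The C1qa call was lost without Abi3-/- mouse 1 (adjusted p = 0.119), without Abi3-/- mouse 2 (adjusted p = 0.174) and with scaling by the total alone (adjusted p = 0.0672). Entpd1, an enzyme that degrades extracellular ATP, and C1qb were the other members that fell, by 0.80 and 0.53 on the log2 scale. Entpd1 lost its call without Abi3+/+ mouse 1 (adjusted p = 0.0841), and C1qb lost it without each mouse except Abi3+/+ mouse 1 (0.0506 to 0.237). With scaling by the total alone neither passed (0.06 and 0.184). For Cx3cr1 the log2 difference was -0.49 ± 0.13 (edgeR, adjusted p = 0.0576), and for Selplg it was 0.01 ± 0.10.

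Further genes that fell were Cd300a, an inhibitory receptor (968, 1250, 832 and 757 against 1932, 1863, 2207 and 2018 RPM), and Tmem173, which encodes the DNA sensor adaptor STING (2835, 3946, 5247 and 3732 against 7183, 5928, 7833 and 7341). Fscn1, an actin-bundling protein, and Slc11a1, a metal transporter of the phagosome, each fell by 0.86 on the log2 scale, and the interleukin-6 receptor gene Il6ra fell by 0.81. In none of these 5 genes did the ranges of cycling and comparison cells overlap. They were picked by fold change among the genes that passed. The share of all genes tested without overlap is not given, so this is a description. Without Abi3+/+ mouse 1 the adjusted p was 0.116 for Cd300a and 0.074 for Il6ra, and without Abi3-/- mouse 2 it was 0.0521 for Slc11a1. With scaling by the total alone, Fscn1 passed, while Tmem173 (0.053), Cd300a, Slc11a1 and Il6ra (0.0566 each) did not. With 3 or more genes of the rule required, Il6ra did not pass either (0.095). The remaining genes of the lower side were Cd14, Tnfrsf1b, Lamp1, Xbp1 and genes described with their lists, and of these the calls of Tnfrsf1b and Lamp1 were lost without any 1 of the 4 mice (0.0519 to 0.263). The call of Cd14 was lost without Abi3-/- mouse 1 (0.0861) or Abi3-/- mouse 2 (0.149). With scaling by the total alone Cd14 (0.0872), Tnfrsf1b (0.161) and Lamp1 (0.337) did not pass.

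Disease-associated microglia are the state that microglia take on near plaques. Of 12 genes of that state, 2 fell, none rose and 10 did not pass, against 7.35% of all genes tested that fell. The list's median log2 fold change was -0.38, against -0.63 for all 272 genes and -0.13 for the 174 more widely read genes, fitted on their own. Apoe, a lipid carrier and the main risk gene of late-onset Alzheimer's disease, was at 4866, 1180, 2056 and 833 RPM in cycling cells and at 9859, 5781, 4813 and 3090 in comparison cells. It was lower in each mouse, while the ranges of the groups overlap. Its log2 fold change of -1.61 ± 0.23 had an adjusted p of 0.00448 in edgeR. The call was lost with limma (-0.36, adjusted p = 0.379), counted as cells with a read (-0.34, 0.489) and without the mouse as a block (-1.40, 0.148). With the cells above 59300 reads included the log2 fold change of Apoe was -0.26 (adjusted p = 0.315). Cd63, a lysosomal tetraspanin, was at 6118, 7857, 5743 and 4832 RPM against 12267, 11806, 9091 and 9021 (log2 fold change -0.79 ± 0.12, adjusted p = 0.00539, edgeR). With the cells above the limit it was -0.09 (adjusted p = 0.649), so that both genes lost their call there.

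Ctsd, a lysosomal protease and the most abundant gene, was at 243296, 264641, 192413 and 192518 RPM against 274743, 379345, 291749 and 259654 (log2 fold change -0.43 ± 0.12, adjusted p = 0.0656, edgeR). The integrin gene Itgax had -1.05 ± 0.30 (adjusted p = 0.0662 in edgeR and 0.0445 in DESeq2, and 0.0471 in edgeR without Abi3+/+ mouse 2). Spp1, which encodes osteopontin, had 1.13 ± 0.56 (adjusted p = 0.244) and was read in 45.5%, 11.1%, 14.8% and 7.69% of cycling cells against 7.68%, 3.20%, 1.28% and 1.88% of comparison cells.

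Immediate early genes respond within minutes to stimuli, tissue dissociation included. Junb, a subunit of the factor AP-1, was at 816, 1485, 3097 and 427 RPM in cycling cells and at 4269, 4255, 5886 and 1258 in comparison cells (log2 fold change -1.59 ± 0.24, adjusted p = 0.00539, edgeR). Its call was lost with limma (adjusted p = 0.0908) and counted as cells with a read (0.0695). It was also lost with comparison cells matched in total reads (0.0707) and without the mouse as a block (0.184). Junb was the 1 gene of 6 that fell, none rose and 5 did not pass in edgeR, against 7.35% of all genes tested that fell. The list's median log2 fold change was -0.66, against -0.63 for all 272 genes and -0.13 for the 174 more widely read genes, fitted on their own. Next by p were Jun (-0.64 ± 0.17, adjusted p = 0.0576, and 0.0245 without Abi3-/- mouse 1), Egr1 (-0.95 ± 0.28, adjusted p = 0.0708, and 0.0331 in DESeq2 and 0.00537 with each cell thinned to 10000 reads) and Fosb (-0.68 ± 0.22, adjusted p = 0.0963). Without the upper read limit Jun (0.0472), Egr1 (0.0127) and Fosb (0.0274) passed as lower in edgeR.

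MHC class II genes present peptides to T cells. H2-Aa had no read in any of the 118 cycling cells, which allows a share of up to 2.54%, and was read in 424 of 11752 comparison cells (3.61%). H2-Eb1 was read in 1 cycling cell and in 2.65% of comparison cells. H2-Aa was thus at 0 in all 4 cycling sums and H2-Eb1 in 3 of the 4, so that both entered edgeR's test through their reads in comparison cells alone, and their adjusted p (0.00305 and 0.015) is given as a description. Counted as cells with a read, neither passed (adjusted p = 0.286 and 0.671), and H2-Aa did not pass with the cells above the read limit included (adjusted p = 0.0635). H2-Eb1 did not pass without Abi3-/- mouse 2 (adjusted p = 0.076) or in cells without markers of other cell types (0.089), and with limma the adjusted p was 0.351 for H2-Aa and 0.466 for H2-Eb1. The invariant chain Cd74 was read in 13.6% of cycling and 13.1% of comparison cells. The other 4 genes of the list did not pass in edgeR. Without the upper read limit Cd74 passed as lower (log2 fold change -1.93, adjusted p = 0.0159, edgeR).

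No gene of 6 interferon genes passed in edgeR, and their median log2 fold change was 0.12. Irf7 (log2 fold change 0.82 ± 0.62), Ifitm3 (0.42 ± 0.37) and Oas2, read in 1 cycling cell, were among them. Other fits called Oas2 (DESeq2, adjusted p = 0.0456) and Ifitm3 (limma, adjusted p = 0.0449, and 0.0262 in edgeR without the upper read limit). Of 9 housekeeping, secretory and metabolic genes, Gapdh rose, Xbp1 fell and 7 did not pass in edgeR, against 3.68% of all genes tested that rose and 7.35% that fell. Xbp1, a factor of the unfolded protein response, was at 2404, 3916, 2778 and 4318 RPM against 4813, 5276, 5016 and 6501 (log2 fold change -0.72 ± 0.14, adjusted p = 0.0141, edgeR). Its call was lost without Abi3-/- mouse 1 (0.0636) or Abi3+/+ mouse 1 (0.0875), with scaling by the total alone (0.0672) and with comparison cells matched in total reads (0.0726). Hprt had 0.35 ± 0.17 (adjusted p = 0.244) and Rpn2, a subunit of oligosaccharyltransferase, 0.62 ± 0.32 (adjusted p = 0.25). DESeq2 called both as higher (adjusted p = 0.0444 and 0.000254).

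**Figure D5:**
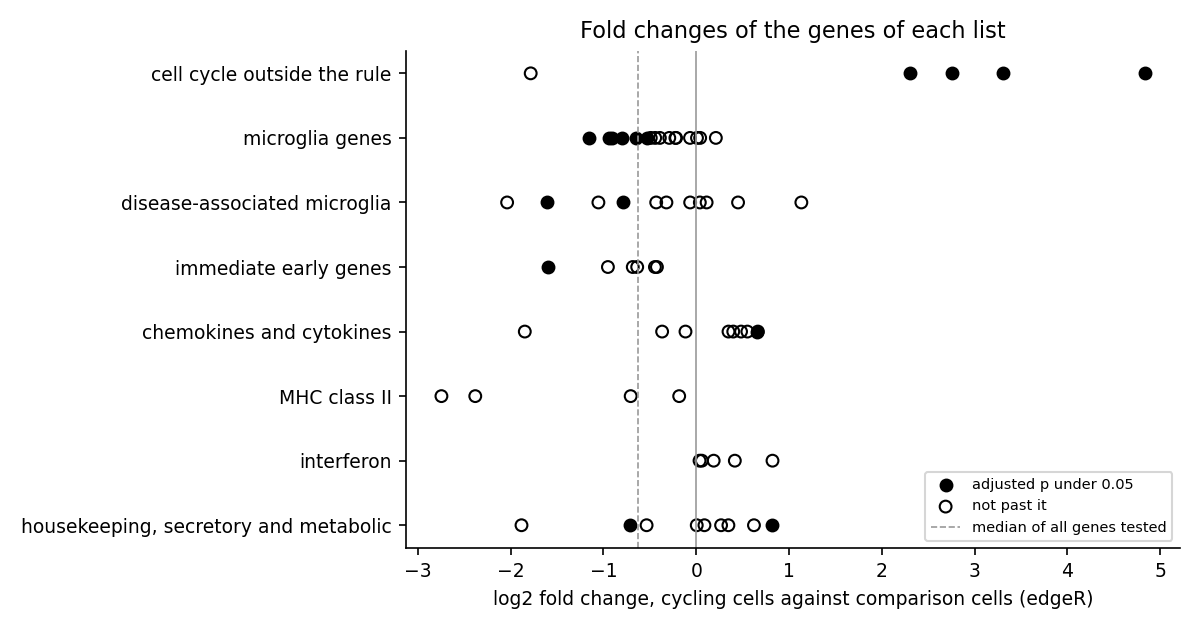
log2 fold change of cycling against comparison cells for the genes of each list (edgeR, 4 mice); filled points passed the adjusted threshold of 0.05, the solid line is 0 and the dashed line is the median of all 272 genes, at -0.63. Filled points on the right are 4 cell cycle genes, Ccl4 and Gapdh, and 5 genes at 0 in 2 or more mice are not drawn.

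Depth was matched as a further check, because the cycling cells were the deeper ones. With comparison cells matched 1 to 1 in total reads, 190 genes could be tested, 4 rose and 4 fell: Pcna, Bax, Gapdh and Cd34, and Apoe, Cd63, Adgre1 and Fcgr3. Mcm2 (log2 fold change 3.32, adjusted p = 0.291), Mcm4 (3.49, 0.24), Pask (8.27, 0.118), Tmem97 (2.09, 0.0844) and Cd52 (1.36, 0.0777) did not pass in this fit by edgeR. All 28 of the 30 genes that could be tested kept their direction. With the number of cells with a read as the measure, 5 genes passed, and these were Pcna, Tmem97, Mcm4, Mcm2 and Pask.

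Genotypes were compared within the cycling cells by edgeR's quasi-likelihood test on the sums of the 4 mice. Of 204 genes tested, 0 passed (0.0%) and 10 had an unadjusted p under 0.05, while DESeq2 called 3 (Fosb, Lyz2 and Birc3). Birc3 was at 0 in the cycling cells of both Abi3+/+ mice and entered through the Abi3-/- mice alone, so its call is a description. The smallest p belonged to Fosb, a subunit of AP-1, at 1213 and 858 RPM in the cycling cells of the Abi3-/- mice and 3706 and 4733 in those of the Abi3+/+ mice, scaled by the total. Its log2 difference was -1.99 ± 0.34, with an adjusted p of 0.548 in edgeR and 0.0185 in DESeq2. The comparison cells had the same order of genotypes for Fosb, at 1202 and 2066 against 4487 and 5569 RPM, and the interaction did not pass (adjusted p = 1.0, edgeR). Lyz2, which encodes lysozyme, had 14839 and 14269 against 8092 and 6472 (log2 difference 1.05 ± 0.25, adjusted p = 0.803 in edgeR and 0.0329 in DESeq2), and Ier3, an early response gene, had -1.17 ± 0.31 (adjusted p = 0.803). In all 3 genes both mice of one genotype lay above both of the other. These genes were picked for the smallest p, and the share of all 204 genes with such an order is not given. That order is thus a description. Without Abi3+/+ mouse 1, Mmp12 had a log2 difference of -14.7, with 1 Abi3+/+ mouse left in the fit. That value rests on Abi3+/+ mouse 2, where Mmp12 was at 4629 RPM in cycling cells, scaled by the total, against 0 in every other mouse. It is given as a description. The common dispersion of this fit was 0.899, with 2 mice per genotype and 11 cycling cells in 1 of them.

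Mcm2, Mcm4, Pcna and Pask did not differ by genotype beyond that spread, and the 5 tested genes of the cell cycle list had a median log2 difference of 0.04. The interaction of cell group and genotype asked whether the difference between cycling and comparison cells itself depended on Abi3. Of 272 genes, 0 passed (0.0%) and 7 had an unadjusted p under 0.05 in edgeR, the 1 tool run on it. Without Abi3-/- mouse 1, 4 genes passed (Birc3, Dusp1, Mmp12 and S100a8), and without Abi3+/+ mouse 1, 9 passed, Birc3, Mmp12 and S100a8 among them. S100a8 is a neutrophil marker, and the cycling cell with all 6 of these markers was in Abi3-/- mouse 2. All reads of Mmp12 in cycling cells came from Abi3+/+ mouse 2. Birc3, an inhibitor of apoptosis, had the smallest p (adjusted p = 0.123 over all 4 mice, edgeR): it was read in 9.09% and 11.1% of cycling cells of the Abi3-/- mice, in none of the Abi3+/+ mice, and in 17.6% to 20.7% of comparison cells. The next were the chemokine gene Ccl9 (log2 difference 1.38 ± 0.35, adjusted p = 0.27) and Jun (0.74 ± 0.24, adjusted p = 0.745).

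Cycling cells with and without a read of Ube2c were set side by side. Ube2c is a gene of the rule, so this split also follows the number of rule genes: 45 of 74 cells with Ube2c had 5 or 6 of the 6 genes, against 6 of 44 without it, and 25 of the 44 had 2. Stage of the cycle and number of rule genes cannot be told apart here. Ube2c was read in 8, 34, 14 and 18 of them and absent from 3, 20, 13 and 8. Of 181 genes tested by edgeR, 0 passed (0.0%), 17 had an unadjusted p under 0.05, and DESeq2 called 7 (Spp1, Qpct, Tmem173, Irf8, Mcm4, Gapdh and Thbs1). Spp1 had reads in the cells with Ube2c of all 4 mice, in 62.5%, 17.6%, 28.6% and 11.1% of cells, and in no cell without Ube2c. There were 44 such cells, which allows a share of up to 6.82%. Spp1 was thus at 0 in all 4 sums without Ube2c and entered the tests through the cells with Ube2c alone. Its adjusted p (0.45 in edgeR and 4.23e-10 in DESeq2) is therefore given as a description. Qpct and Thbs1 had log2 differences of 7.85 and 9.65 in DESeq2, against 10.0 for Spp1, and their calls are given as a description as well.

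Tmem173 was lower in cells with Ube2c, at 2239, 3356, 3899 and 2866 RPM against 5427, 5435, 8131 and 6696, scaled by the total (log2 difference -1.07 ± 0.26, adjusted p = 0.45, edgeR). Irf8, a transcription factor that microglia need, was at 9707, 12939, 17375 and 10380 against 3215, 9175, 8977 and 5642 (log2 difference 0.97 ± 0.29, adjusted p = 0.45). For both genes the direction was the same in all 4 mice. Neither passed in edgeR, and both passed in DESeq2 (adjusted p = 0.0112 for Tmem173 and 0.0474 for Irf8). Of the replication genes, Mcm4 was at 528, 966, 380 and 1195 RPM in cells with Ube2c and at 4776, 2011, 2446 and 1749 in cells without it (log2 difference -1.87 ± 0.59, adjusted p = 0.45 in edgeR and 0.0474 in DESeq2). Mcm2 (-0.16 ± 0.65), Pcna (-0.09 ± 0.27) and Pask (0.12 ± 0.85) lay near 0.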

How the data were processed

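Single cells of 4 mouse brains were profiled with the BD Rhapsody Mouse Immune Response Panel, with 1 library per mouse. The authors ran the BD Rhapsody Targeted Analysis Pipeline at default settings (version not given in the sources used here; the labels name mm10) and deposited its error-corrected (DBEC) matrices, which hold whole read counts for each gene in each cell. They are reads, not molecules, so intervals and floors cover counting error only. Total reads per library were 87117727 to 150756771, and 61058416 to 102612276 after the cell filter. Doublets were treated by the upper read limit alone.

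The cycling cells and all gene lists were chosen with earlier results of these data known. Counts were summed per mouse and group and tested with edgeR 4.0.16 (filterByExpr, TMM, quasi-likelihood, Benjamini-Hochberg over all genes tested, threshold 0.05), without the 10 genes of the rule. The SE is the fold change divided by the square root of F. Shares were compared by exact permutation over mice. Tests were checked on simulated data, with recovery and false calls required only at a dispersion far below that of these data and without TMM. Recovery and false calls of the tests as run here are not covered by that check. Named genes were the cell cycle list, up to 12 higher and 12 lower by fold, up to 4 per list by adjusted p, and the 3 smallest p where none passed; Spp1 beside its list, Cst7, Cx3cr1, Selplg, Entpd1, C1qb and genes named only for a call in an alternative were picked after their values were seen. One gene that this rule names is not reported here. Alternatives used DESeq2 1.42.0, limma 3.58.1, other scalings, filters, cell rules and mice left out. Positions and promoters are RefSeq's for GRCm38.p6, matched by symbol or synonym for 59 of 59 genes. No 2 libraries of a genotype held identical values, and nothing in the labels gives a batch.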

Additional observations from a re-analysis of the deposited data

Results flagged for a closer look

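Cells above 59300 reads were left out of every comparison. Among 1485 Trem2-positive cells without Cd3e, Cd79a and Ccr2 above that limit, 49 met the rule for cycling cells, which is 3.30% (95% exact binomial interval 2.45% to 4.34%). Among the kept cells it was 118 of 12888, or 0.916% (0.758% to 1.10%). By mouse the share above the limit was 3.55%, 2.74%, 4.18% and 2.78% in the order used in the report, and so exceeded the share below the limit in each of the 4 mice. With these cells included, 25 genes were higher and 29 lower in cycling cells, and the shares of cycling cells were 0.766%, 1.41%, 1.14% and 1.12%. The part of deeper sampling and of several cells under 1 label in these shares was not tested.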

How the results depend on the processing

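The difference in the share of cycling cells between genotypes kept its sign with 3 or more genes required, all kept cells as the denominator and cells thinned to 10000 reads (0.0211 to 0.13 points), and turned without any cell filter (-0.00225 points) or without the upper read limit (-0.0403 points). Leaving out 1 mouse moved it from -0.305 to 0.471 points.

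For cycling against comparison cells, the 30 genes of edgeR's test became 72 with DESeq2 (33 higher, 39 lower), 13 with limma on mean log-normalized expression (10 and 3), 5 with the number of cells with a read, 8 with comparison cells matched in total reads, 58 without the mouse as a block (10 and 48) and 54 without the upper read limit. Leaving out 1 mouse gave 19 to 29 genes, and the other settings gave 21 to 35. Of the 30 genes, 8 still passed with limma. Of the called genes, those that could be tested kept their direction in every setting, except C1qa with the number of cells with a read (0.00403). Genes that did not pass turned more often, 84 of them with limma and 65 with the number of cells with a read. Of those named here the sign turned in Ctsd with the number of cells with a read (0.000291) and without the upper read limit (0.37), in Itgax with limma (0.11), and in Irf7 (-2.48) and Ifitm3 (-1.20) with 3 or more of the 6 genes required.

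Genotypes within cycling cells gave 3 calls with DESeq2 and 0 to 1 with 1 mouse left out, the interaction 0 to 9 with 1 mouse left out, and the Ube2c split 7 with DESeq2, 1 without a filter on low counts (S100a8) and 0 with any 1 mouse left out. The cause was not tested. With the replicate number as a block, the difference in share was 0.0828 points as before. In edgeR 9 genes then passed by genotype within cycling cells, 4 higher and 5 lower. The smallest adjusted p was that of S100a8 (1.88e-31), at 26120 RPM in Abi3-/- mouse 2 and at 0, 0 and 28.5 in the other mice. The cycling cell with all 6 neutrophil markers was in that mouse. Fosb (adjusted p = 0.000163) and Lyz2 (0.00913) were also among the 9. The replicate numbers were not used as pairs, since nothing in the labels ties them to a shared litter or day. Deviations from the genotype mean correlated at -0.0227 over 204 genes in cycling cells and 0.228 over 272 genes in comparison cells.

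Settings without the upper read limit and without markers of other cell types were added after the data were seen. The genotype tests rest on 2 mice per group, of which 1 gave 11 cycling cells.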
